A study of Mizuhopecten yessoensis with 6 samples.

Results

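In the Yesso scallop, Mizuhopecten yessoensis, a bivalve of cold seas, 21 of 20815 listed gill genes were low or silent at normal oxygen and transcribed in every scallop under hypoxia. A gene was counted as switched on when its identifier began with LOC, its FPKM (fragments scaled to the length of the gene and the size of the library) was below 1 in every normal library and 2 or more in every hypoxia library, and its lowest hypoxia value was at least 2 times its highest normal value. The members were thus chosen on the same difference between oxygen levels that is described below. Their levels and fold changes are therefore a description. How many of them the test over all genes called is counted once, beside its background, and supports nothing.

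The study asked how scallops respond to low oxygen. The experiment used 60 scallops. The normal libraries came from 3 scallops kept in water with 9 mg/L of dissolved oxygen, and the hypoxia libraries from 3 kept at 1 mg/L. Both groups were kept so for 24 h, and each library came from the gill of 1 scallop. No genotype, strain or age is given in the sources used here, nor is the number of tanks, so a tank cannot be told apart from its oxygen level. Between 24062577 and 27900042 reads stood behind each library's FPKM values.

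Bivalves breathe through their gills, whose surface lies open to the water. In animals the response to low oxygen is governed in large part by hypoxia-inducible factor, a transcription factor whose alpha subunit is broken down when oxygen is plentiful and builds up when it is scarce. Its known targets in mammals include glycolytic enzymes and glucose transporters. Bivalves are known for closing their valves and turning to anaerobic metabolism when oxygen falls.

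The deposited table and the RefSeq gene table of assembly ASM211388v2 give these genes only by LOC identifier. All 21 members were found in that table, and all 21 are protein coding there, as are all 20815 listed genes. No protein name or role is paired with them in the sources used here, so none is given, and neither the pathway lists nor the cell type markers of gill could be matched to identifiers. In whole gill tissue, more cells of a type and more RNA per cell cannot be told apart.

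Many genes were below 1 FPKM at normal oxygen, and few of them reached 2 FPKM in every hypoxic scallop. Of the 20804 genes with an LOC identifier, 5980 were below 1 FPKM in every normal library. Of these, 5333 were also below 1 FPKM in every hypoxia library. Another 120 reached 2 FPKM in exactly 1 hypoxic scallop, 34 in exactly 2, and 21 in all 3. Those 21 are the members, and the ratio of 2 follows from the other limits. With the groups exchanged, the same rule found 9 genes below 1 FPKM in every hypoxia library and at 2 FPKM or more in every normal library, out of 6258 genes below 1 FPKM in every hypoxia library.

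**Figure D1:**
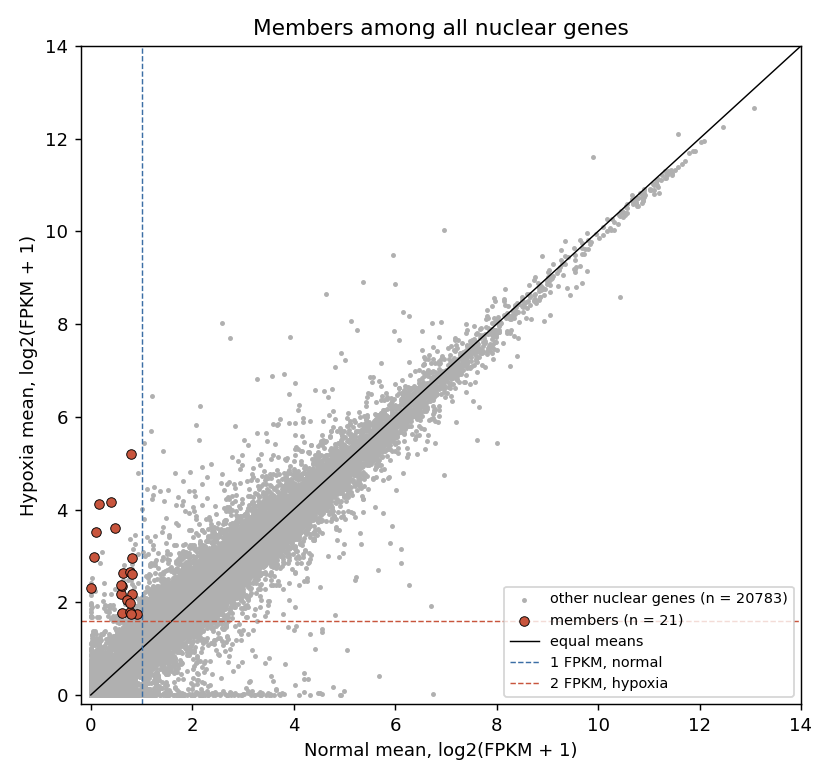
Mean of the 3 hypoxia libraries against the mean of the 3 normal libraries for every nuclear gene, both as log2(FPKM + 1). Red points are the 21 members, grey points all other nuclear genes, the solid line marks equal means and the dashed lines mark 1 FPKM in normal and 2 FPKM under hypoxia. The members lie in the corner left of the one dashed line and above the other, from 2.34 to 35.8 FPKM under hypoxia. Other genes lie there too by their means but missed a limit in a single library. One is LOC110440237, with means of 0.917 and 26.6 FPKM in normal and hypoxia.

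Most members remained modest in level even when switched on. Their normal means ran from 0 to 0.882 FPKM with a median of 0.559, and their hypoxia means from 2.34 to 35.8 FPKM with a median of 4.17. By mean level the members lay above 0 to 32.2% of all listed genes in normal gill and above 47.0 to 92.1% under hypoxia. The mean under hypoxia was 10 FPKM or more in 5 members, from 5 to under 10 in 5, and under 5 in 11. Summed over the 21 members, the level was 11.5, 12.0 and 9.40 FPKM in normal replicates 1, 2 and 3, and 171, 139 and 154 FPKM in hypoxia replicates 1, 2 and 3. The members held 0.00415 ± 0.000529% of normal reads and 0.0431 ± 0.00348% of hypoxia reads (SD over 3 libraries each), so even together they were a very small part of the gill's RNA.

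The fold change was large in a few members and small in many. The ratio of mean FPKM had a median of 7.63 over the 20 members with any normal reads, from 2.68 to 162. It was 10 or more in 6 of these 20, between 5 and 10 in 7, and under 5 in 7. Of all tested genes with normal reads, 0.313% were 10-fold or more higher, a difference of which the rule made use. For comparison, 172 genes that limma called higher from a normal mean of 1 FPKM or more had a median ratio of 3.01. Both sets were chosen on the same 6 libraries, so this difference was not tested. On the log2(FPKM + 1) scale, on which the changes of weakly expressed genes come out too small, the members had a median change of 1.78 (range 0.84 to 4.43), against 0.03 over all 13744 tested genes.

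**Figure D2:**
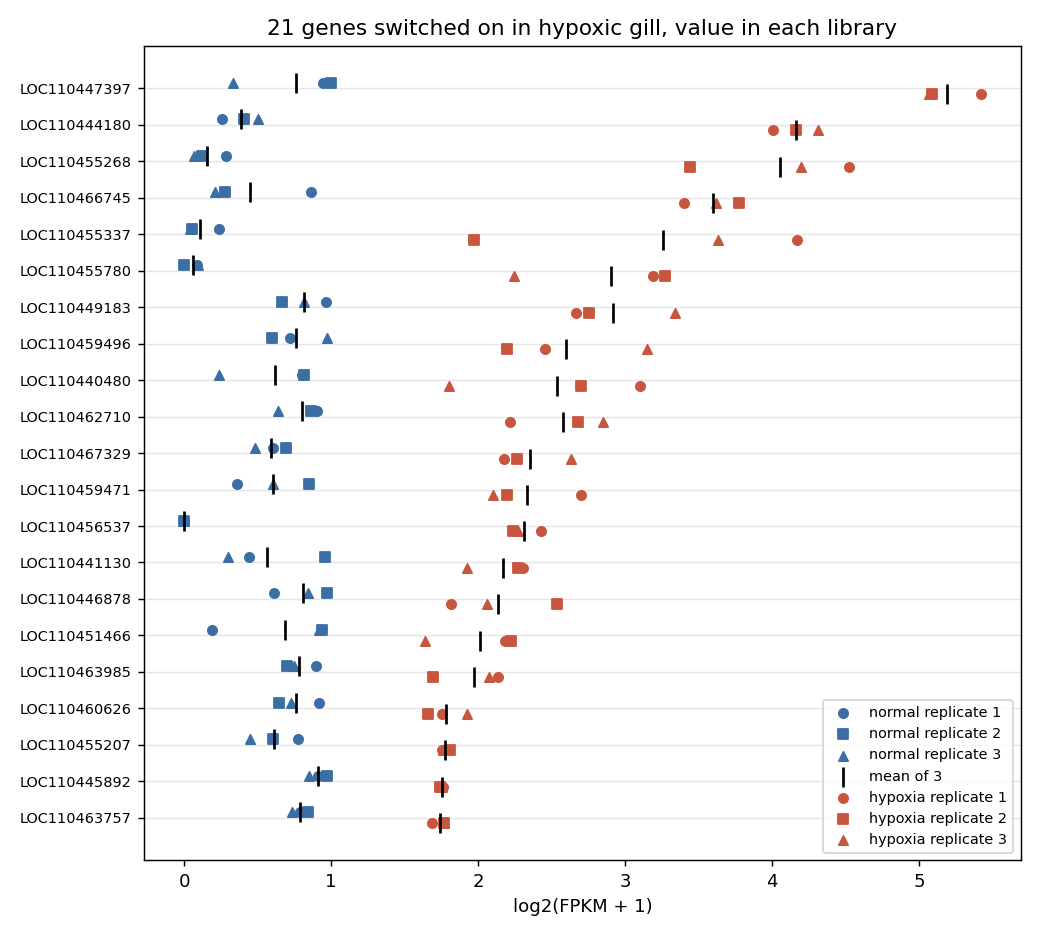
Level of each of the 21 members in each of the 6 libraries, as log2(FPKM + 1), ordered by mean FPKM under hypoxia. Blue symbols are normal and red symbols hypoxia libraries, the symbol shape gives the replicate number, and the black tick is the mean of the 3 values. The rule keeps the groups apart in every row, while the spread among the hypoxia libraries goes from a highest-to-lowest ratio of 1.02 in LOC110445892 to 5.80 in LOC110455337.

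LOC110447397 reached the highest level of all members. It had 0.927, 1.00 and 0.259 FPKM in normal replicates 1, 2 and 3 and 41.8, 33.0 and 32.5 FPKM in hypoxia replicates 1, 2 and 3. The normal value of replicate 2 is 0.9999 FPKM before rounding, the closest of any member to the limit of 1. Its mean rose from 0.729 ± 0.408 to 35.8 ± 5.20 FPKM (SD, n = 3 each), a ratio of 49.1 carried by 125 normal and 6581 hypoxia reads. The 3 hypoxic scallops lay close together, while normal replicate 3 lay well below the other normal scallops.

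LOC110444180 had a fold change of similar size from far fewer reads. Its normal values were 0.193, 0.328 and 0.415 FPKM, from 3, 5 and 6 reads, and its hypoxia values 15.1, 16.9 and 18.9 FPKM, from 242, 283 and 312 reads. The ratio of means was 54.4. From the summed reads the ratio was 54.9, with an exact binomial 95% interval of 32.5 to 101 that covers counting error only. All 3 hypoxic scallops stood near one another, with a highest-to-lowest ratio of 1.25. In the reference table its span overlaps those of LOC110444178 and LOC110444179, which are annotated as long non-coding RNAs, and of the coding gene LOC110444181. The sources used here do not say how reads in overlapping genes were counted, or whether strand was used.

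LOC110455268 and LOC110455337 are the only 2 members that are direct neighbours, and both were among the most strongly changed. LOC110455268 had 0.216, 0.088 and 0.046 FPKM in the normal libraries and 22.0, 9.86 and 17.3 FPKM in the hypoxia libraries, a ratio of means of 140. LOC110455337 had 0.177, 0.039 and 0.027 FPKM in the normal libraries and 17.0, 2.93 and 11.4 FPKM in the hypoxia libraries, a ratio of 129. Both genes followed the same order over scallops, with hypoxia replicate 1 highest and hypoxia replicate 2 lowest, and normal replicate 1 above replicates 2 and 3. The drop in hypoxia replicate 2 was deeper in LOC110455337, whose 249 reads there compare with 1383 and 953 in hypoxia replicates 1 and 3. The next listed gene in line, LOC110455338, is no member and did not pass the filter for the test, at 0 FPKM in every normal library and 1.79, 0.127 and 1.10 FPKM under hypoxia, again with replicate 2 lowest. The spans of these 3 genes do not overlap. Whether they share reads through similar sequence was not tested.

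LOC110466745 was higher in one normal scallop than in the others. It had 0.814, 0.212 and 0.154 FPKM in the normal libraries and 9.58, 12.7 and 11.3 FPKM under hypoxia, a ratio of means of 28.4. Normal replicate 1 held 114 of its 163 normal reads, and even so its lowest hypoxia value was 11.8 times its highest normal value. LOC110455780 was close to absent at normal oxygen, with 2, 0 and 2 reads (0.061, 0 and 0.066 FPKM). Under hypoxia it had 8.13, 8.66 and 3.74 FPKM, from 274, 305 and 130 reads. The ratio of 162 is the highest among the members with any normal reads, yet it rests on 4 normal reads, and from reads it was 163 with an exact binomial 95% interval of 63.3 to 599.

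LOC110456537 was the one member with 0 reads in every normal library. Under hypoxia it had 4.37, 3.71 and 3.83 FPKM, from 62, 55 and 56 reads, which is among the narrower spreads of the members. With a floor of 3 reads in each normal library it was at least 17.7-fold higher under hypoxia. From the summed reads (0 normal and 173 hypoxia) the exact binomial interval for the ratio had a lower limit of 42.6, which covers counting error only. No upper limit was set. Its depth is thus enough to show expression in all 3 hypoxic scallops, but it bounds the size of the change only from below. In 10 of the 63 normal library values of the members, spread over 5 members, 3 or fewer reads were counted.

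The 3 smallest changes on the log2 scale were in weakly expressed members. LOC110445892 had 0.883, 0.961 and 0.804 FPKM in normal and 2.39, 2.34 and 2.37 FPKM under hypoxia, a ratio of means of 2.68. LOC110463757 had 0.729, 0.793 and 0.663 FPKM in normal and 2.22, 2.40 and 2.40 FPKM under hypoxia, a ratio of 3.22. LOC110460626 had 0.892, 0.563 and 0.653 FPKM in normal and 2.37, 2.15 and 2.80 FPKM under hypoxia, a ratio of 3.47. These genes were low in both groups and went from weak to somewhat less weak expression, with 489, 224 and 379 reads over the normal libraries, so they were detected at normal oxygen and were not off. LOC110446878 likewise had 0.530, 0.965 and 0.789 FPKM in normal, from 115, 205 and 159 reads, and 2.52, 4.80 and 3.18 FPKM under hypoxia.

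LOC110451466 had 0.142, 0.916 and 0.890 FPKM in normal and 3.53, 3.68 and 2.11 FPKM under hypoxia. It is the member nearest to the hypoxia limit and to the ratio, with a lowest hypoxia value of 2.11 FPKM and 2.31 times its highest normal value. LOC110467329 had 0.517, 0.613 and 0.398 FPKM in normal and 3.51, 3.80 and 5.20 FPKM under hypoxia, a ratio of means of 8.20. Its highest hypoxia value was 1.48 times its lowest. The members LOC110440480, LOC110459496 and LOC110459471, are named because of their values. LOC110440480 had 0.742, 0.758 and 0.178 FPKM in normal and 7.60, 5.51 and 2.49 FPKM under hypoxia, with hypoxia replicate 3, at 32 reads, well below the others. LOC110459496 had 0.643, 0.511 and 0.962 FPKM in normal and 4.47, 3.58 and 7.85 FPKM under hypoxia, with replicate 3 highest in both groups. LOC110459471 had 0.283, 0.799 and 0.520 FPKM in normal and 5.51, 3.59 and 3.30 FPKM under hypoxia. The other 5 members had 0.227 to 0.953 FPKM in single normal libraries, 2.24 to 9.10 FPKM in single hypoxia libraries, and ratios of means from 4.10 to 8.80.

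The limits of the rule cut through a continuous range of values. On the inside, LOC110447397 and LOC110446878 had the highest normal values, 0.9999 and 0.965 FPKM. On the outside, LOC110449353 and LOC110458822 missed only the normal limit, with highest normal values of 1.19 and 1.23 FPKM, and LOC110458822 had at least 28.2 FPKM in every hypoxia library. At the hypoxia limit, LOC110451466 and LOC110460626 stood inside at 2.11 and 2.15 FPKM, and LOC110453057 and LOC110457172 outside at 1.95 and 1.82 FPKM. In all, 124 genes missed only the normal limit and 826 missed only the hypoxia limit. A gene at 0 FPKM in every normal library meets the ratio whatever its hypoxia value. The 826 thus include genes at or close to 0 under hypoxia, such as LOC110440269 with means of 0 and 0.00666 FPKM, and are not all near the limit. With a hypoxia limit of 1 FPKM the rule chose 44 genes. The ratio could remove none, since values below 1 and of 2 or more differ by over 2 times.

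The hypoxic scallops did not rank the members in 1 common order. Of the 21 members, 9 were highest in hypoxia replicate 1, 5 in replicate 2 and 7 in replicate 3, and each of the 6 possible orders was found in 2 to 5 members. Over 9315 other tested genes with hypoxia means in the same range, 31.9, 31.6 and 36.5% were highest in hypoxia replicates 1, 2 and 3. The median FPKM of the members was 4.37, 3.80 and 3.74 in hypoxia replicates 1, 2 and 3. Since the rule asks for 2 FPKM in each of them, all 3 had to contribute. Among the normal scallops, replicate 3 was lowest in 11 members, with a median of 0.415 FPKM against 0.643 and 0.613 in replicates 1 and 2. It was highest in 3 members, and in 25.3% of the same other genes, against 36.3 and 38.4% in normal replicates 1 and 2. That library also had the lowest total (24062577 reads) and the fewest genes at 1 FPKM or more, 12930 against 13851 and 13280 in normal replicates 1 and 2. The part of these in the members' low values was not tested.

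Members varied between hypoxic scallops by a median coefficient of variation of 21.7% (range 1.15 to 67.9%). Over 9315 other tested genes with hypoxia means in the same range, the median was 15.1%, and over the other 184 genes called higher it was 11.5%. The calls favour genes with little spread within a group, and the 9315 genes were matched on the range of means only. These differences were not tested. LOC110455337 was the most variable member at 67.9%, and LOC110445892 the least at 1.15%. In normal gill the median was 34.4% over the 20 members with reads, and 14 of these varied more between normal than between hypoxic scallops. The low read counts in normal gill add counting error to that figure, and the difference was not tested.

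The value in a library that played no part in the choice was looked at next. The rule was applied to 5 libraries, and the sixth was read for the genes so chosen. Leaving out hypoxia replicate 1, 2 or 3 gave 36, 27 or 34 genes. A gene so chosen that also reaches 2 FPKM in the scallop left out is a member by definition. The 21 members were 58.3, 77.8 and 61.8% of these lists. Among all 5980 genes below 1 FPKM in every normal library, 1.47, 1.52 and 1.20% reached 2 FPKM in those scallops. Of the 5980, 5333 were below 1 FPKM in every hypoxia library. These shares are thus of unlike sets, and their difference was not tested. The left-out hypoxia value exceeded every normal value in 30 of 36, 25 of 27 and 30 of 34 genes. No share of other genes above their normal range in that scallop is given beside these counts, so nothing is read from them.

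Leaving out a normal scallop gave longer lists. Without normal replicate 1, 2 or 3 the rule chose 53, 42 or 29 genes, and in the scallop left out 39.6, 50 and 72.4% of them were below 1 FPKM. Those below 1 FPKM are again the 21 members by definition. Among genes below 1 FPKM in the other normal scallops, whatever their hypoxia value, 87.2, 93.5 and 95.9% were below 1 FPKM in that scallop. This difference was not tested. The gene highest in a left-out normal library was LOC110465685, with 0 FPKM in normal replicates 2 and 3 and 30.2 FPKM in normal replicate 1. The left-out normal value was below every hypoxia value in 39 of 53, 37 of 42 and 27 of 29 genes. These counts likewise have no share over other genes beside them, so nothing is read from them.

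**Figure D3:**
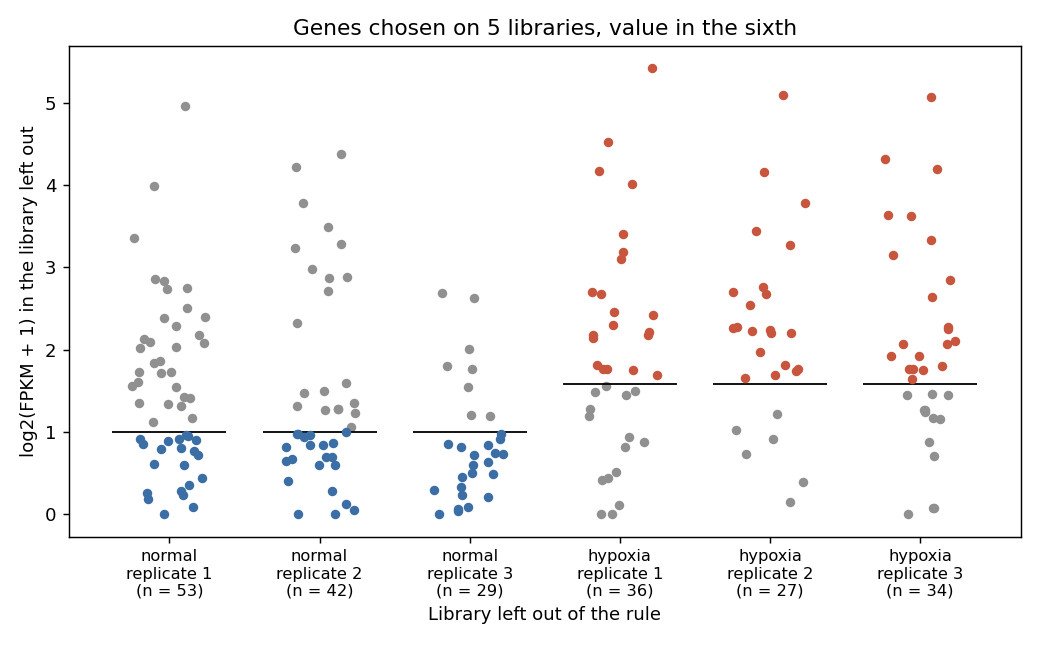
For each library left out in turn, the level in that library, as log2(FPKM + 1), of the genes chosen by the rule on the 5 others. Coloured points (blue normal, red hypoxia) are the 21 members, grey points are genes that only the shorter set of libraries chose, and the black line is the limit of 1 FPKM for normal or 2 FPKM for hypoxia libraries. The members were chosen on all libraries, so the rule itself puts every coloured point on its side of the line. The grey points are most numerous in normal replicate 1, where 53 genes were chosen on the other libraries.

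The test over all genes was fitted on the whole table with limma on log2(FPKM + 1), with Benjamini-Hochberg adjustment over the 13744 genes that reached 1 FPKM in 3 or more libraries. Every member passes that filter by the rule itself. It called 1.48% of the tested genes higher under hypoxia, and 19 of the 21 members were among them. LOC110440480 and LOC110451466 were the members it did not call. The rule used the same difference, so nothing is read from this count. The count was 10, 9 and 6 without normal replicate 1, 2 and 3, where 1.14, 0.735 and 0.549% of all tested genes were called higher. It was 8, 6 and 8 without hypoxia replicate 1, 2 and 3, where the share of all tested genes was 0.395, 0.303 and 0.374%. With limma's voom on the recovered reads it was 12, where 1.35% of all tested genes were called higher. Complete separation of the groups is likewise built into the rule, and 15.5% of all tested genes also had every hypoxia value above every normal value.

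The genes beside the members were not chosen by the rule. In gene order, 24 tested genes that are no members lie directly next to one, and limma called 5 of them higher and 1 lower. That is 20.8% higher, against 1.48% of all tested genes, while the median log2 change of the 24 was 0.03. Fewer neighbours were called with 1 library left out, where 0.303 to 1.14% of all tested genes were called higher. With normal replicate 3 or any one hypoxia library left out, LOC110447322 alone remained called, of 26 or 27 tested neighbours, and 2 were called without normal replicate 1 or 2. LOC110447322 overlaps its member in span, and the other 4 do not overlap theirs. The 5 genes belong to 3 members, and in 15 of the 21 members no direct neighbour was a member or was called. A further 10 direct neighbours were not tested, and LOC110441130 had no listed neighbour, so no call was possible there. Gene order comes from a reference assembly that may differ from the one used for counting, and this share was not tested.

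**Figure D4:**
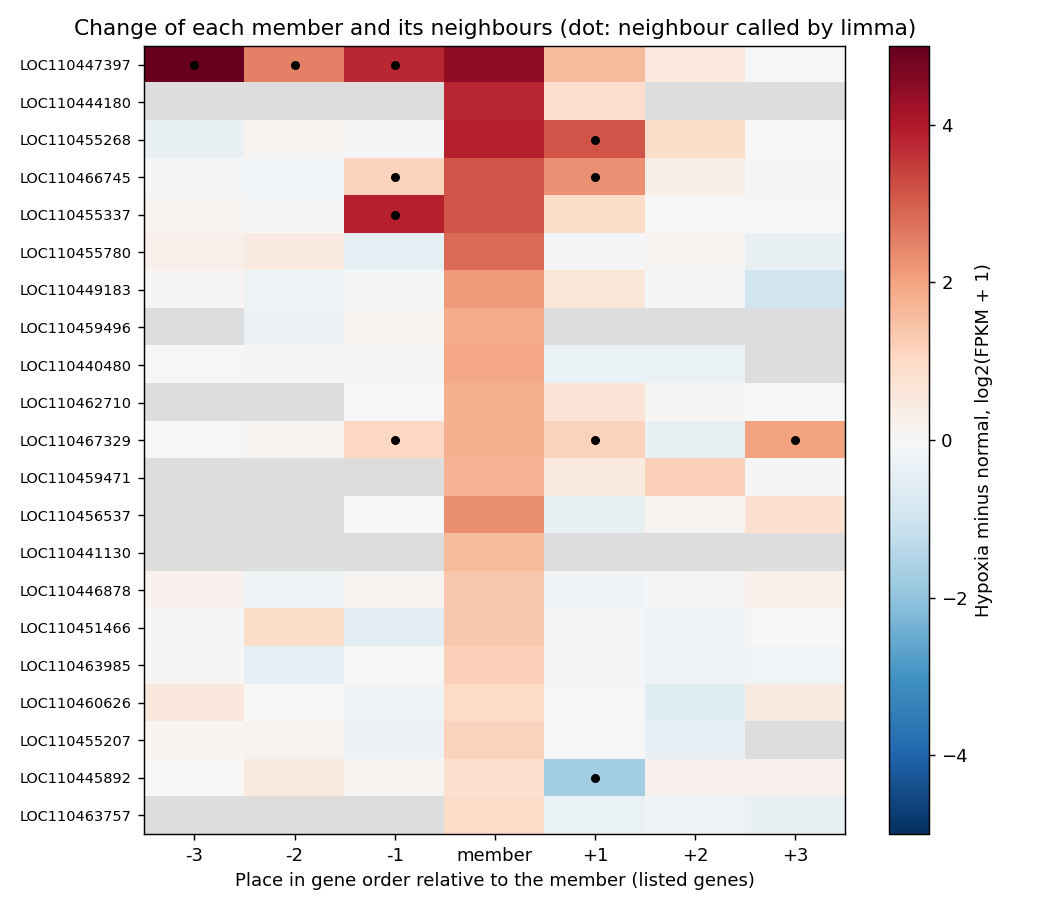
Change of each member (centre column) and of up to 3 listed genes on either side in gene order, as the difference in log2(FPKM + 1) between hypoxia and normal, red for higher and blue for lower under hypoxia. A black dot marks a neighbour that limma called and grey marks places with no listed gene on the same scaffold. Neighbours called higher lie beside LOC110447397, LOC110466745 and LOC110467329, and LOC110455268 and LOC110455337 mark each other.

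LOC110447397 lies in a stretch of strongly raised genes. LOC110447322, on one side of it, had 12.9, 13.9 and 15.9 FPKM in normal and 256, 197 and 174 FPKM under hypoxia (log2 change 3.77, limma adjusted p = 0.00059). The next gene on that side, LOC110447345, had 31.9, 39.3 and 17.8 FPKM in normal and 179, 172 and 147 FPKM under hypoxia (log2 change 2.51, limma adjusted p = 0.013). It missed the threshold without hypoxia replicate 1, 2 or 3 (adjusted p = 0.069, 0.078 and 0.055). The spans of both genes overlap that of LOC110447397 in the reference table. Both stood above LOC110447397 in every library, and the part of their reads in its values was not tested. The ratio of means of LOC110447397, 49.1, was above theirs, and on its other side LOC110447408 was not called (1.31 ± 0.767 and 5.99 ± 2.50 FPKM, limma adjusted p = 0.088). Beyond LOC110447345, LOC110447376 had 7.17, 3.52 and 6.38 FPKM in normal and 149, 251 and 222 FPKM under hypoxia (log2 change 4.97, limma adjusted p = 0.0012). Its span does not overlap that of LOC110447397, and its call was kept in 12 of 12 alternatives.

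LOC110466745 and LOC110467329 each had a raised gene on both sides, with no overlap of spans. Beside LOC110466745, LOC110466821 had 1.39, 1.82 and 1.64 FPKM in normal and 4.28, 5.68 and 4.27 FPKM under hypoxia (log2 change 1.13, limma adjusted p = 0.032). On its other side LOC110466873 had 34.4, 14.3 and 12.5 FPKM in normal and 74.9, 103 and 108 FPKM under hypoxia (log2 change 2.29, limma adjusted p = 0.045). The groups did not overlap in either gene, and normal replicate 1 was the highest normal scallop in both LOC110466745 and LOC110466873. Each of these 2 calls was kept in 4 of 12 alternatives (adjusted p from 0.029 to 0.13 and from 0.0072 to 0.17). LOC110466821 lost its call without any single library (0.071 to 0.13), and LOC110466873 without any single library other than normal replicate 1 (0.13 to 0.17).

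Beside LOC110467329 the raised neighbours were expressed at several FPKM in normal gill. LOC110467290 had 4.28, 3.45 and 4.83 FPKM in normal and 9.85, 8.42 and 10.5 FPKM under hypoxia (log2 change 1.04, limma adjusted p = 0.042). LOC110467275 had 4.04, 5.01 and 3.92 FPKM in normal and 11.2, 9.54 and 11.4 FPKM under hypoxia (log2 change 1.14, limma adjusted p = 0.022). Their calls were kept in 2 and 6 of 12 alternatives (adjusted p from 0.041 to 0.15 and from 0.022 to 0.12). LOC110467290 lost its call without any single library (0.076 to 0.15), and LOC110467275 without any single library other than normal replicate 2 (0.056 to 0.11). The groups did not overlap in either neighbour, while the member between them went from 0.509 ± 0.108 to 4.17 ± 0.906 FPKM.

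One member had a neighbour that fell. LOC110445874, next to LOC110445892, had 19.2, 15.8 and 19.4 FPKM in normal and 4.80, 5.01 and 4.35 FPKM under hypoxia, and its log2 change of -1.74 was called by limma (adjusted p = 0.0044, and 0.0048 to 0.053 over 12 alternatives). LOC110459471 overlaps in span with LOC110459491, an untested low gene with 0.820, 2.17 and 0.168 FPKM in normal and 0.417, 5.72 and 0.909 FPKM under hypoxia. LOC110459491 was highest in replicate 2 of both groups, and LOC110459471 in normal replicate 2 and hypoxia replicate 1. The part of shared reads was not tested. Besides LOC110447397, LOC110444180 and LOC110459471, no member overlaps another gene of the reference table.

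The gene lengths by which FPKM was scaled, recovered together with the reads, ran from 468 to 8372 bases over the members, with a median of 2377 against 2920 over all tested genes. LOC110440480, LOC110456537 and LOC110444180 had the shortest, at 468, 532 and 601 bases, and were counted from the fewest hypoxia reads for their level. A recovered length is the shortest that makes every read count whole, so the true length can be a whole multiple of it. This holds above all for LOC110456537, where only 3 libraries have reads.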

How the data were processed

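The authors deposited 1 table of FPKM values per gene and library, used as deposited. Tools named in the submitters' processing notes are HISAT2, HTSeq and fastp. The sources used here give no versions, settings, strand, genome build or annotation. RNA was extracted with TRIzol, per the labels' protocols. The 6 columns were matched to samples by the names in the titles, with 0 left unmapped. Replicates are separate scallops, and p-values set the difference between groups against the spread between scallops, pooled in part over genes. They cannot tell a tank from its oxygen level.

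Members, lists and tests were chosen with earlier results of these data known. Of 20815 genes, those reaching 1 FPKM in 3 or more libraries (2 where 1 library was left out) were tested with limma-trend 3.58.1 in R 4.3.3 on log2(FPKM + 1). The model had a term for group alone, tests were two-sided and the threshold was an adjusted p of 0.05. The test was checked on simulated data.

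Library totals were found as whole numbers that make the reads of the 11 mitochondrial genes whole at their RefSeq lengths, and gene lengths (50 to 60000 bases) likewise, to within 0.002 reads. Lengths came out for 20813 of 20815 genes. A new scaffold was assumed wherever start positions dropped from 1 gene to the next, so some ends may be missed.

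The genes named are the 6 highest under hypoxia, the 3 largest and 3 smallest log2 changes, those at 0 in normal, the 2 nearest each limit, and members beside a member or called gene, plus those said to be named for their values. Protein likeness and promoter motifs were planned, but sequences were not used here. The pathway and marker lists were not tested, as the identifiers carry no names. Alternatives covered the rule's limits, pseudocount (0.1), filter, scaling, replicate block and left-out libraries. Voom on recovered reads was added after the data were seen. Python 3.11.15, numpy 2.4.6, pandas 2.3.3, scipy 1.17.1 and matplotlib 3.10.9 were used.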

Additional observations from a re-analysis of the deposited data

How the results depend on the processing

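The number of members depends on the limits. It was 5 with a normal limit of 0.5 FPKM, 41 with a normal limit of 2, 44 with a hypoxia limit of 1, 5 with a hypoxia limit of 5, 9 with a ratio of 5, and 27 to 53 with 1 library left out. With median ratio scaling it was 20, as LOC110459496 reached 1.02 in a normal library. Of the 21 members, limma called 19 higher (1.48% of all tested genes), 15 with a pseudocount of 0.1 (1.19%), and 17 and 16 with median ratio scaling and quantile normalization (1.21% each). It called 10 when no genes were filtered out (0.476%), 5 under the replicate block (0.335%), 12 with voom (1.35%), and 6 to 10 with 1 library left out (0.303 to 1.14%). Of the members' direct neighbours 1 was called under the replicate block. Fewer libraries or added terms by themselves reduce how many genes are called. The rule used the same difference, so nothing is read from these counts. The direction turned in 0 of 252 member values over 12 alternatives, but the rule all but fixes it, so nothing is read from this either. No source says that replicate numbers pair scallops for the block, and the deviations of libraries 1, 2 and 3 from their group means correlated at 0.10, 0.01 and -0.09 between groups. The median log2 change of the members was 2.79 with a pseudocount of 0.1, 1.67 with quantile normalization and 1.72 to 1.86 with 1 library left out, against 1.78. At this depth 0 reads limits a gene only to under 3 reads in a library.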
